A study of Mus musculus with 6 samples.

Results

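Cold-inducible RNA-binding proteins are represented in mammalian cells by 2 genes, Cirbp and Rbm3, and both were taken by gene name from the 54532 genes listed for each of 6 RNA-seq libraries. RNA came from YAMC cells, a conditionally immortalised mouse line labelled as young adult colonic epithelium. Its immortalising gene, SV40 large T antigen in the temperature-sensitive tsA58 form, is driven by a promoter that interferon-gamma induces. Growth at 33 °C in interferon-gamma, and the WT genotype, were common to all 6 libraries, controls included. The treated group (3 libraries) was given 20 µg/ml of the milk oligosaccharide 2'-fucosyllactose (2'-FL) over 6 h, and the untreated control group (3 libraries) has no time in its labels. A single line was used, so the data describe that line. By its title, the study asks how 2'-FL acts on the EGF receptor of intestinal epithelium. No library was made at another temperature, so the levels below describe cells at 33 °C and contain no measure of induction by cold.

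Cirbp and Rbm3 encode small proteins with a single RNA recognition motif at the start and a glycine-rich tail. Both are known as transcripts that rise when mammalian cells are cooled mildly, while heat shock proteins rise with warming. The proteins bind messenger RNA and have been tied to messenger stability, translation and the choice of polyadenylation site, and Cirbp also moves to stress granules and can be released from cells. Rbm3 is known to carry an alternative exon that leads to decay of the transcript at warmer temperature. The counts analysed here sum over all transcripts of a gene (7 annotated for Cirbp and 11 for Rbm3 in GENCODE M21), so they do not separate such forms.

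The first 60 coding bases of both genes are shown because this is the stretch of that length, within 1 exon of each, in which the pair was most alike, and reads from a similar pair could be confused. It begins the part of the gene that encodes the RNA recognition motif. They are written 5′ to 3′ from the GENCODE M21 transcripts (GRCm38), with capitals in the second line for bases that differ from Rbm3. The Rbm3 stretch lies on chromosome X (8144998 to 8145057, minus strand) and the Cirbp stretch on chromosome 10 (80169814 to 80169873, plus strand).
Rbm3: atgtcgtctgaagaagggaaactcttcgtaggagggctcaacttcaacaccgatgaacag
Cirbp: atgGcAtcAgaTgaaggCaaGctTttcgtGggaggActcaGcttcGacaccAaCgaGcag
The pair differed at 14 of these 60 bases. Over the 450 coding positions that could be aligned, 73.1% were identical, and the longest run shared by the coding sequences was 11 bases. No 50-base stretch of any Cirbp transcript, 0 of 2693, occurred in a transcript of another gene. Copies outside annotated transcripts were not checked, for either gene, so how far they bear on the counts below was not tested.

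Rbm3 has near-identical processed pseudogenes, and the 60-base coding stretch in which a pair of these differ from it most is shown to give how few bases tell them apart even there. Rbm3 is on chromosome X (8144585 to 8144644, minus strand), Rbm3-ps on chromosome 1 (150265802 to 150265861, minus strand) and Gm10156 on chromosome 7 (107863177 to 107863236, plus strand), all on GRCm38, with capitals for bases that differ from Rbm3.
Rbm3: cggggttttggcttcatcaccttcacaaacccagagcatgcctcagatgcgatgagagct
Rbm3-ps: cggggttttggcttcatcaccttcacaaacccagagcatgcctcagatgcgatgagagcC
Gm10156: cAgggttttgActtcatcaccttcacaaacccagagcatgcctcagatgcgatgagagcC
Rbm3-ps differed from Rbm3 at 1 base in this window and Gm10156 at 3. Over the aligned coding sequence, Rbm3-ps was 99.4% and Gm10156 99.1% identical to Rbm3, and the shorter Gm48583 was 100% identical over its 220 bases. Of the 5024 distinct 50-base stretches in Rbm3 transcripts, 488, or 9.71%, also occurred, in either orientation, in transcripts of other genes. Reads from those stretches could have been counted for either gene or for neither, as the counting program was not given. The 5024 stretches pool all 11 annotated transcripts of Rbm3. The share within the coding sequence alone, which the pseudogenes copy, was not counted. The counts assigned to the 3 pseudogenes were small, summing to between 12 and 25 per library, or 0.241% to 0.501% of the Rbm3 count. Such counts do not show how many reads of Rbm3 went uncounted. An antisense gene, Rbm3os, overlaps the start of Rbm3 and held 4 to 18 counts per library. No other gene of the files overlaps Cirbp.

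The stretch upstream of the RefSeq start site of Cirbp is given because that promoter is known to hold an octamer described as a mild-cold response element, bound by Sp1. It is the part of the RefSeq promoter entry (GRCm38.p6) that precedes the first exon base annotated within it, chr10:80167589-80167777 on the plus strand. The annotated gene begins further upstream, at 80165985, so the stretch lies inside the gene span, between annotated exons. Capitals mark the octamer TCCCCGCC and GC boxes, GGGCGG or its reverse complement.
Cirbp: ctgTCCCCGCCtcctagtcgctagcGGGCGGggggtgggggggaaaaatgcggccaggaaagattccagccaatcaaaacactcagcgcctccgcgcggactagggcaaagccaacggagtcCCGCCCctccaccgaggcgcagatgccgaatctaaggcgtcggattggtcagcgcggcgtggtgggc
This stretch of 189 bases held the octamer once and 2 GC boxes, which did not overlap the octamer. Searched on both strands, the octamer occurred in the first 189 bases of 2.86% of the 32851 RefSeq promoter entries and a GC box in 22.6%. A CCAAT box was present at 2 places, against 26.5% of entries with at least 1, and the core TGACG of the cyclic AMP response element was not in this window (11.6% of entries). These matches describe letters only. Cirbp, the 1 member matched in the RefSeq promoter table, has 2 entries there, and the upstream one is shown.

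The libraries held between 19978583 and 25251187 counts each, and between 19955 and 20828 genes had at least 1 count. Keratins of simple epithelium were abundant, with Krt8, Krt18 and Krt19 at 307 ± 47.3, 271 ± 15.9 and 392 ± 48.9 CPM, the count per 1000000 counts of the library (SD, n = 6). The other 7 of 10 epithelial markers averaged under 1 CPM, Epcam and Cdh1 among them, and Cdx2 and Cdh17 had 0 counts in all libraries together, where a count of 0 allows up to 3 counts or 0.0231 CPM. Of 8 fibroblast markers, 7 averaged over 10 CPM, and their summed level ranged from 8859 to 10097 CPM with 2'-FL and from 8408 to 8607 CPM in controls. Smooth muscle markers summed to 221 to 462 CPM with 2'-FL and 140 to 202 CPM in controls, and endothelial markers to 15.5 to 19.0 and 13.4 to 19.8 CPM. All 6 immune markers averaged under 1 CPM, and their sum was 0.277 to 0.943 CPM treated and 0.597 to 0.700 CPM untreated. The fibroblast and smooth muscle sums were higher in every treated than in every untreated library. Epithelial sums (949 to 1172 CPM with 2'-FL, 850 to 969 CPM in controls), endothelial sums and immune sums overlapped between the groups. The share of all genes that separate the groups in this way was not counted, so the separation is a description only. The fibroblast sum is mostly Col1a1, Col3a1 and Vim, and 3 of its 8 markers had lower group means with 2'-FL, Pdgfra (13.5 against 16.3 CPM), Pdgfrb (18.9 against 23.2 CPM) and Dcn (674 against 711 CPM). The smooth muscle sum is mostly Acta2 (336 against 168 CPM). The endothelial sum is mostly Tek and Kdr (means of 11.8 and 4.70 CPM over all libraries), while Pecam1 and Cdh5 averaged 0.286 and 0.0930 CPM. No list of mesothelial genes was read. Upk3b and Msln, known from mesothelium, ranked 28 and 45 among protein-coding genes by mean count per gene length. Both were named after their values were seen. The keratins alone thus do not settle the labelled origin of the line, which was not tested. The part of all these markers in the results below was not tested. The labels give a single line, and a mixture of cell types was not shown. In bulk RNA, fewer cells of a type and less RNA per cell cannot be told apart.

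Rbm3 was the abundant member. Its level, in CPM scaled by trimmed means of M-values (TMM), was 246, 212 and 249 in treated replicates 1 to 3, against 233, 276 and 247 in untreated replicates 1 to 3. The lowest value belonged to a 2'-FL library and the highest to a control library, and the other 4 libraries interleaved, so the groups overlapped. These values rest on between 4609 and 5887 counts per library, 31495 in all. The gene (ENSMUSG00000031167) spans chromosome X from 8138975 to 8145880 on the minus strand of GRCm38.

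Cirbp was measured at a much lower level. Its TMM-scaled CPM was 10.6, 11.7 and 12.7 in treated replicates 1 to 3, against 12.1, 12.6 and 12.3 in untreated replicates 1 to 3. The lowest and the highest library were both 2'-FL libraries, and the 3 controls lay between them. Counts were 249, 289 and 254 with 2'-FL and 239, 269 and 249 in controls, a total of 1549. At this depth, counting error alone gave a 95% exact Poisson interval of 9.39 to 12.1 CPM in 2'-FL replicate 1, of 11.2 to 14.4 CPM in 2'-FL replicate 3 and of 10.5 to 13.6 CPM in control replicate 1 (per library total). The intervals cover counting error only. Cirbp (ENSMUSG00000045193) spans chromosome 10 from 80165985 to 80172786 on the plus strand.

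**Figure D1:**
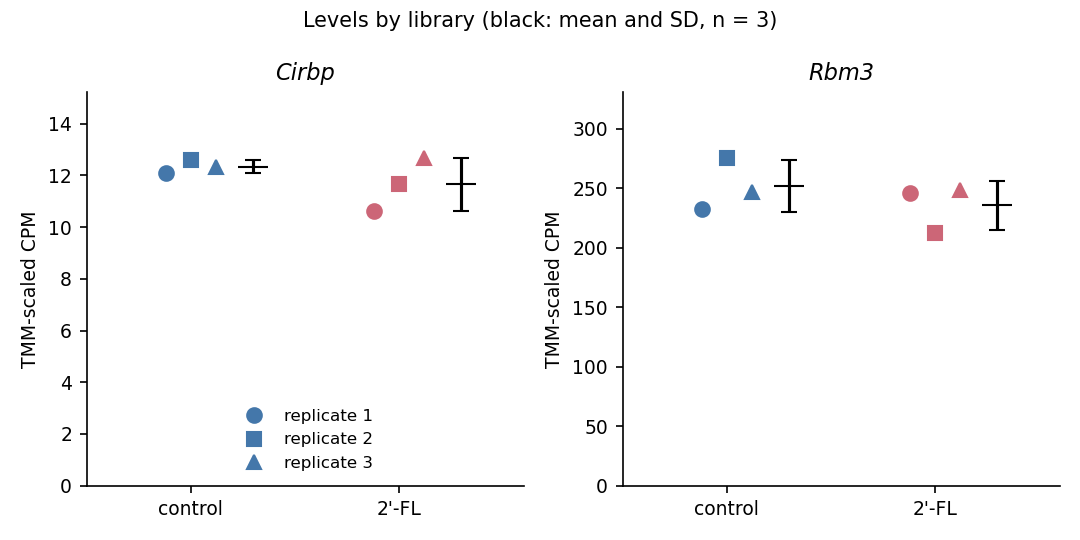
TMM-scaled CPM (vertical axes, from 0) of Cirbp and Rbm3 in each library of the control and 2'-FL groups, with symbols for the replicate number and black bars for the mean and SD (n = 3). The groups overlap for both genes, and Rbm3 lies between 212 and 276 where Cirbp lies between 10.6 and 12.7.

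To compare the genes with each other, counts were divided by gene length and by the library total (RPKM), with the lengths the files give, 4698 bases for Rbm3 and 2604 bases for Cirbp. Rbm3 stood at 51.9 ± 5.02 RPKM and Cirbp at 4.60 ± 0.312 RPKM (SD, n = 6). Per kilobase, Rbm3 was 11.3 ± 1.02 times as abundant as Cirbp (SD, n = 6), from 10.1 times in 2'-FL replicate 2 to 12.8 times in 2'-FL replicate 1. With the longest annotated protein-coding transcript as the length (2792 and 1321 bases) the ratio was 9.64 ± 0.867 (SD, n = 6), an alternative chosen after seeing the data. In every library Rbm3 exceeded Cirbp by far more than either gene varied between libraries.

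Rbm3 ranked among the top genes and Cirbp near the middle. By RPKM, Rbm3 ranked between 805 and 1173 in the 6 libraries, within the highest 3.86% to 5.83% of genes with a count. Cirbp ranked between 7853 and 8413, or at 37.9% to 41.7% of the way down. Among protein-coding genes with a count, of which each library held 14714 to 14890, the ranks were 779 to 1143 for Rbm3 and 7617 to 8149 for Cirbp. The protein-coding genes next to Rbm3 by mean RPKM were Selenot (51.9 ± 3.20 RPKM), a selenoprotein of the endoplasmic reticulum, and Slc7a5 (51.8 ± 10.3 RPKM), a large neutral amino acid transporter (SD, n = 6). Those next to Cirbp were Med26 (4.61 ± 0.622 RPKM), a Mediator subunit, and Tcfl5 (4.60 ± 0.564 RPKM), a transcription factor (SD, n = 6). They were chosen for adjacent means and place the members on the scale.

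**Figure D2:**
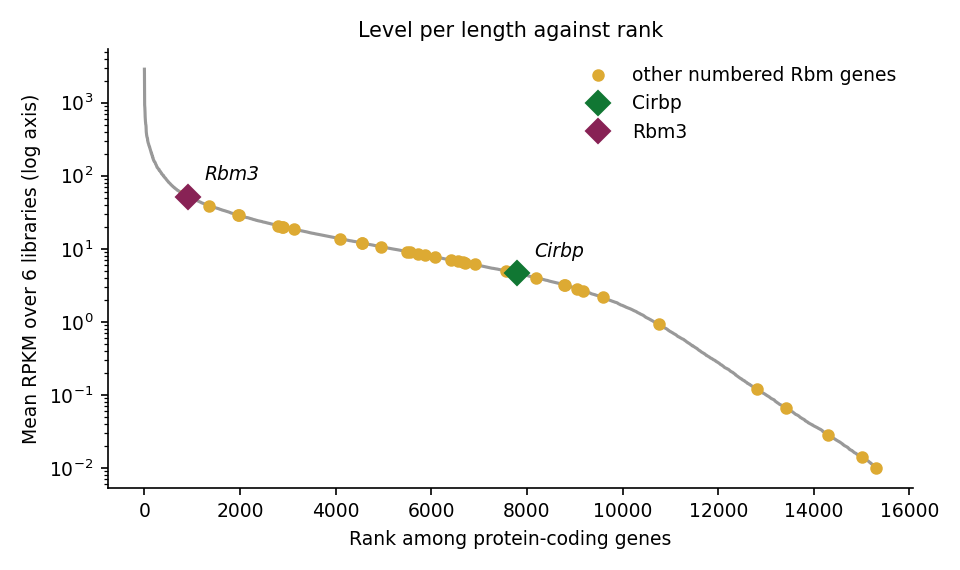
Mean RPKM over 6 libraries (vertical log axis) against rank among protein-coding genes (horizontal axis), as a grey line, with the other numbered Rbm genes as yellow points and both members as diamonds. Rbm3, at 51.9 RPKM, sits on the steep left end, where it hides the points of Rbm17 and Rbm28, and Cirbp, at 4.60 RPKM, lies in the middle of the curve.

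Placed among all genes named Rbm and a number (41 entries, 2 of them antisense genes), Rbm3 was the third by mean RPKM. Rbm17, a splicing factor, stood at 55.3 ± 2.55 RPKM and Rbm28, a nucleolar protein, at 53.8 ± 3.84 RPKM (SD, n = 6), and neither differed from Rbm3 beyond the spread between libraries. Rbm39, a splicing coactivator and the next in order, stood at 39.0 ± 1.62 RPKM (SD, n = 6), and its highest library (40.5 RPKM) lay below the lowest library of Rbm3 (44.3 RPKM). Without division by length, Rbm39 was the higher, at 271 ± 11.3 CPM against 244 ± 23.6 CPM for Rbm3 (SD, n = 6). This order therefore depends on the deposited lengths. Cirbp would fall below 25 of the 41. A further 10 of the 41 averaged under 1 RPKM. Rbm42 was among those 10, with 2 to 6 counts per library, but 73.6% of the 50-base stretches of its transcripts also occur in the overlapping gene Gm21982, which is listed at 0, so its level is uncertain.

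**Figure D3:**
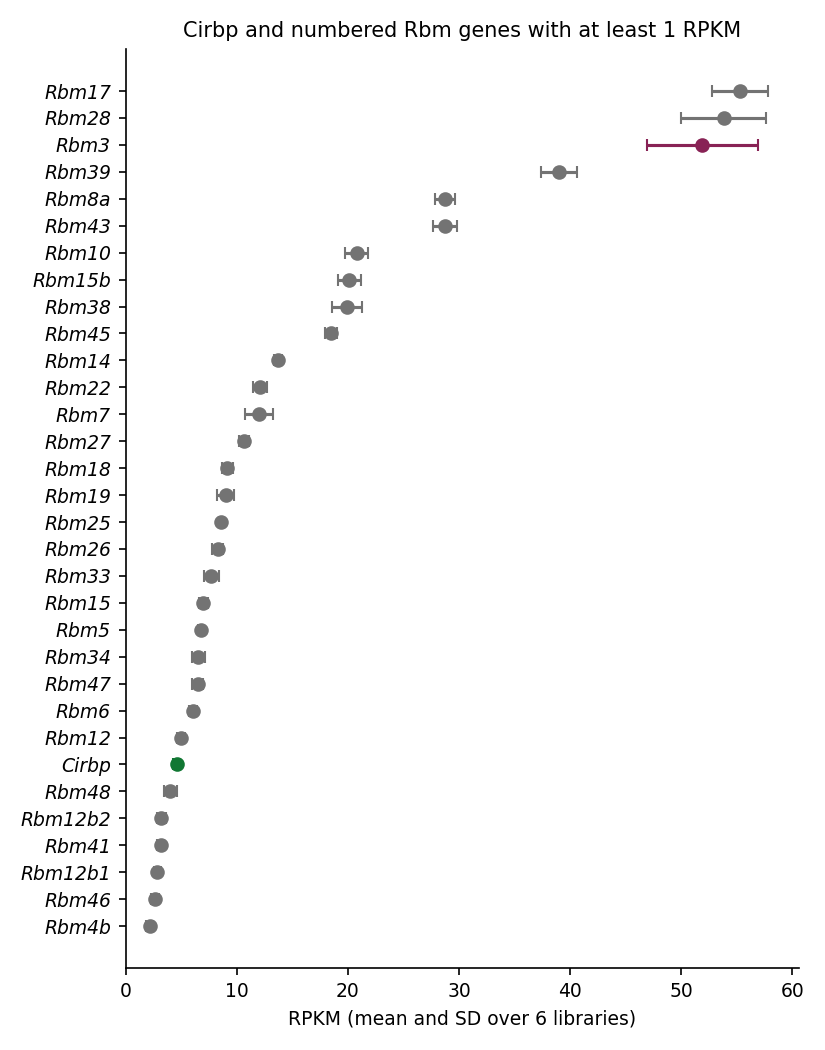
RPKM (horizontal axis, mean and SD over 6 libraries) of Cirbp, Rbm3 and the other numbered Rbm genes that averaged at least 1 RPKM, in order of level. Rbm3 stands with Rbm17 and Rbm28 above 50 RPKM, and Cirbp, at 4.60 RPKM, is near the lower end.

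Glycine-rich RNA-binding relatives gave a similar order. Among 16 such genes, both members included, Rbm3 was at place 8 and Cirbp at place 15 by mean RPKM. The hnRNP genes Hnrnpa1 (252 ± 7.21 RPKM) and Hnrnpab (242 ± 8.37 RPKM) led, and Ewsr1 (53.1 ± 0.973 RPKM), an RNA-binding protein of the FET family, stood next to Rbm3 within its spread (SD, n = 6). Rbmx, the closest in level to Cirbp, had 5.31 ± 0.457 RPKM and its retrocopy Rbmxl1 had 56.6 ± 1.94 RPKM (SD, n = 6). Reads of this pair may have been divided by the counting, so the place of Rbmx is uncertain.

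Neither member was shown to differ after 6 h of 2'-FL. Rbm3 averaged 236 ± 20.6 CPM when treated against 252 ± 21.9 CPM untreated (SD, 3 libraries each), or a log2 fold change, treated minus untreated, of -0.10 ± 0.08 (SE; edgeR's quasi-likelihood test, Benjamini-Hochberg adjusted p = 0.811). The 95% interval of that change ran from -0.27 to 0.08 on the log2 scale, or from 0.831 to 1.05 times the control level. Cirbp averaged 11.7 ± 1.03 CPM when treated against 12.3 ± 0.265 CPM untreated (SD, 3 libraries each), a log2 difference of -0.08 ± 0.12 (SE; edgeR adjusted p = 0.899). Its 95% interval ran from -0.34 to 0.17, or from 0.791 to 1.13 times the control level. The same test called 0 of 14129 genes (0%), 0 of the 2 members among them, with 1116 genes at an unadjusted p under 0.05, and limma-voom called 0. The DESeq2 Wald test called 34 genes, or 0.241%, and neither member (adjusted p = 0.916 for Rbm3 and 0.974 for Cirbp). Over all alternatives, in edgeR, DESeq2 or limma-voom, the adjusted p ran from 0.671 to 0.9995 for Rbm3 and from 0.876 to 0.9995 for Cirbp.

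The direction of both small differences held when any 1 library was left out, but their size depended on single libraries. For Rbm3 the log2 fold change was -0.03 without 2'-FL replicate 2 and -0.02 without control replicate 2, the lowest and highest libraries, and reached -0.15 without control replicate 1. For Cirbp it was -0.02 without 2'-FL replicate 1, its lowest library, and -0.14 without 2'-FL replicate 3.

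The proportion between the members did not differ by group beyond the spread. Rbm3 per Cirbp, per kilobase, was 12.8, 10.1 and 10.9 in treated replicates 1 to 3, against 10.7, 12.1 and 11.1 in untreated replicates 1 to 3. Group means were 11.3 ± 1.42 treated and 11.3 ± 0.743 untreated (SD, 3 libraries each). An exact permutation test of the log2 ratio, two-sided, gave p = 0.9 (no p under 0.1 can be reached with 3 libraries a group). This ratio is formed within a library and needs no scaling between libraries.

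The members varied to different degrees relative to counting error. Rbm3 had a coefficient of variation of 8.71% with 2'-FL and 8.70% in controls, where counting alone would give 1.38% at its mean count. Cirbp had 8.81% with 2'-FL and 2.15% in controls, where counting alone would give 6.22%. Each of these coefficients rests on 3 libraries and is imprecise. With counting error removed, the coefficient that edgeR estimated was lower for Rbm3 (7.40%) than for Cirbp (8.92%). Its median over the genes tested was 8.19%. On the log2 scale the pooled SD within groups was 0.13 for Rbm3 and 0.092 for Cirbp, against a median of 0.13 over the genes tested. That median covers genes of all levels, and genes of similar level were not compared. Among the genes tested, mean CPM was at percentile 94.2 for Rbm3 and 34.6 for Cirbp. Across the 6 libraries their log2 levels had a Pearson r of 0.35 (exact two-sided permutation p = 0.465) and a Spearman rho of 0.77 (exact two-sided permutation p = 0.103), the 1 relation between samples that was tested. Without 2'-FL replicates 1 and 2, the libraries farthest from the Cirbp median, r was 0.73 over 4 libraries. These values moved with the scaling. Scaled by library total, r was 0.48 and rho 0.83 (exact permutation p = 0.315 and 0.0583). With upper-quartile scaling they were 0.39 and 0.60, and with relative log expression (RLE) scaling 0.33 and 0.77. Without the 2 farthest libraries, which were 2'-FL replicates 1 and 3 under RLE, r ran from 0.73 to 0.99. A shared variation of the pair was therefore not shown at this number of libraries.

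Genes around the pair were then read from 10 lists of pathway members. Of 143 genes on the lists, 125 were tested. By edgeR 0 of these passed in either direction, against 0% of all genes tested, while 7, or 5.60%, had an unadjusted p under 0.05, against 7.90% of all genes tested. The values below are therefore descriptions of genes that did not pass. DESeq2 and limma-voom called 0 of them as well. Negative log2 fold changes made up 46.4% of the list genes tested, against 51.6% of all genes tested.

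Upstream factors were present at uneven levels. Sp1 and Sp3, zinc finger factors that bind GC boxes such as those shown above for Cirbp, stood at 171 ± 8.73 and 175 ± 9.35 CPM when treated, against 179 ± 11.8 and 175 ± 4.09 CPM untreated (SD, 3 libraries each). Their log2 fold changes were -0.06 ± 0.07 and -0.01 ± 0.06 (SE). Creb1, a factor that binds cyclic AMP response elements, had -0.08 ± 0.08 (SE). The median over the 5 tested members was -0.0052, with 2 positive and 3 negative, beside a median of -0.0056 over all genes tested. The thermosensitive channel Trpv4 stood at 51.0 ± 4.23 CPM when treated against 50.9 ± 2.35 CPM untreated (SD, 3 libraries each), and was named after its values were seen. The cold channel Trpm8 had at most 1 count in any library, the warm channel Trpv3 at most 4 and the neurotrophin receptor Ntrk2 at most 2, so these 3 were not tested.

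Splicing factors and kinases tied to temperature divided into 10 with positive and 14 with negative log2 fold changes among 24 tested, with a median of -0.0044. Clk1, a kinase of SR splicing factors, had the smallest p of this list, at 47.3 ± 4.84 CPM when treated against 55.1 ± 5.46 CPM untreated (SD, 3 libraries each), a log2 difference of -0.22 ± 0.09 (SE; edgeR adjusted p = 0.582). The most abundant members, the hnRNP gene Hnrnpf and the SR factor Srsf1, had values of 0.04 ± 0.06 and 0.03 ± 0.06 (SE). Among proteins that import or modify Cirbp, 5 of 6 had positive values, with a median of 0.05. Transportin-1, Tnpo1, which carries Cirbp into the nucleus, had -0.07 ± 0.07 and the kinase Gsk3b 0.05 ± 0.07 (SE). Csnk2b, the regulatory subunit of casein kinase 2, stood at 94.8 ± 2.14 CPM when treated against 84.3 ± 1.48 CPM untreated (SD, 3 libraries each), a log2 difference of 0.17 ± 0.06 (SE) that did not pass (edgeR adjusted p = 0.514).

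Transcripts reported as bound or stabilised by Cirbp or Rbm3 had negative values in 7 of 8 members, with a median of -0.07, and 0 of the 8 passed. Ptgs2, the inducible cyclooxygenase, stood at 119 ± 22.3 CPM when treated against 154 ± 30.8 CPM untreated (SD, 3 libraries each), a log2 difference of -0.38 ± 0.13 (SE; edgeR adjusted p = 0.503). Without the filter on low counts it passed, the 1 list member to do so in that setting. The reticulon Rtn3 had 0.03 ± 0.07 and thioredoxin, Txn1, -0.03 ± 0.08 (SE). Stress granule proteins had 10 positive and 6 negative values of 16, with a median of 0.02. The poly(A)-binding protein gene Pabpc1 had 0.02 ± 0.06, the initiation factor gene Eif4g1 0.06 ± 0.08 and Tia1, a nucleator of the granules, -0.15 ± 0.08 (SE).

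Heat shock proteins, which respond to temperature in the other direction, had positive values in 11 of 14 members, with a median of 0.04. Scaled by library total alone, 10 were positive and 4 negative. The chaperone genes Hsp90ab1 and Hspa8 were far more abundant per length than either member, at 834 and 474 RPKM, and had log2 fold changes of 0.02 ± 0.07 and 0.03 ± 0.07 (SE). The co-chaperone Bag3 had 0.14 ± 0.07 (SE, edgeR adjusted p = 0.632). Cold shock domain proteins, which share a name with the pair but have another RNA-binding fold, had 4 positive and 1 negative value of 5 tested, with a median of 0.06. Ybx1, a messenger-packaging protein, stood at 849 ± 55.8 CPM when treated against 812 ± 16.5 CPM untreated (SD, 3 libraries each), Carhsp1 had 0.09 ± 0.06 and Csdc2 0.16 ± 0.10 (SE).

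Receptors that sense released Cirbp ranged from moderate levels to none. Tlr4, the receptor, stood at 43.3 ± 4.20 CPM when treated against 47.6 ± 3.12 CPM untreated (SD, 3 libraries each), a log2 difference of -0.14 ± 0.09 (SE), and its co-receptor Cd14 had -0.01 ± 0.14 (SE). All 3 tested members had negative values, with a median of -0.06, and Trem1 had 0 counts. Among glycine-rich relatives, 8 of 13 tested had positive values, with a median of 0.01. Rbmx had the smallest p there, with 0.18 ± 0.10 (SE), and Hnrnpa2b1 and Hnrnpa1 had -0.01 ± 0.06 and 0.03 ± 0.06 (SE). The other numbered Rbm genes had 16 positive and 15 negative values of 31 tested, with a median of 0.00069, and 11 positive and 20 negative values with a median of -0.0096 when scaled by library total alone. The medians of the other 9 lists kept their sign under each scaling. Rbm28 and Rbm39, the most abundant in CPM, had 0.15 ± 0.07 and 0.01 ± 0.06 (SE). Rbm4b had -0.29 ± 0.10 (SE, edgeR adjusted p = 0.502), and its close paralogue Rbm4 could share reads with it, which makes that count uncertain.

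**Figure D4:**
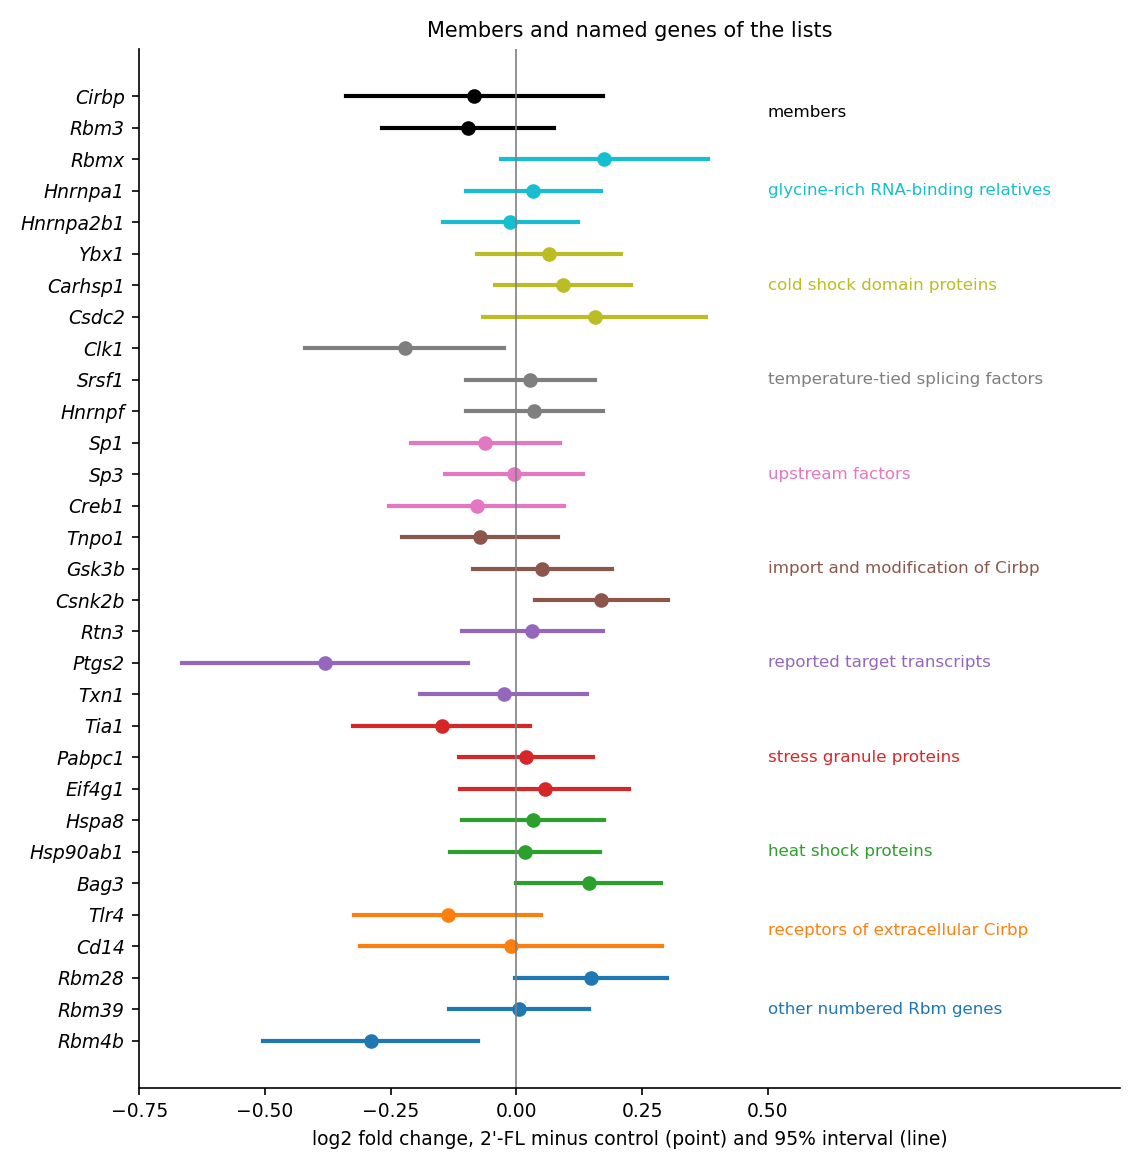
Log2 fold change, 2'-FL minus control, with its 95% interval (horizontal axis, edgeR), for both members and for the named genes of the lists, coloured by list. The intervals of Cirbp (-0.34 to 0.17) and Rbm3 (-0.27 to 0.08) include 0, and no gene shown passed after adjustment.

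The genes whose log2 levels followed each member most closely over the 6 libraries were not shared between the members. For Rbm3 they were Fam69b, Tusc3, Clasrp, Cnbp and Mtch2, with Pearson r from 0.98 to 0.99, and for Cirbp Lhfpl2, Tigd2, Vsig2, Ovgp1 and Lemd3, with r from 0.97 to 0.98. Each list is the top of 14128 genes compared over only 6 libraries, of which 285 had r over 0.9 with Rbm3 and 70 with Cirbp, and Vsig2 and Ovgp1 averaged near 1 CPM. Ordered by r, Cirbp was at place 4472 for Rbm3, and Rbm3 at place 2853 for Cirbp.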

How the data were processed

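Total RNA was extracted and made into NEBNext Ultra II libraries, per the labels' protocols. Reads passed through bcl2fastq, FastQC 0.11.9 and Bowtie2 (version given as 2.7.3a), per the submitters' processing notes. The genome build named there is human, whereas the deposited files hold mouse genes whose start and end equal GENCODE M21 (GRCm38) for 98.3% of those listed. The counting program and its strand setting were not given in the sources used here. What the authors deposited is 1 table of unnormalized counts per library, with gene lengths in bases. No label ties the replicates to separate cultures. P-values thus cover the spread of these samples alone, and that spread may be technical. No pair of libraries agreed within sampling noise (chi-square per gene 5.26 or more).

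Counts were filtered with filterByExpr (minimum count 10), which left 14129 genes, scaled by TMM and tested with edgeR 4.0.16 in R 4.3.3 by the quasi-likelihood test, with Benjamini-Hochberg adjustment over all genes and a threshold of 0.05. Log2 levels used a prior count of 2. The test was checked on simulated data. RPKM used the deposited lengths. Members and lists were chosen with earlier results of these data known. Named from each list were the 2 most abundant tested genes and the one with the smallest p, then the 5 genes most like each member (without Gm and Rik names) and its neighbours by RPKM. Alternatives were other scalings and filters, a replicate block, DESeq2 1.42.0, limma-voom (limma 3.58.1), robust estimation and leaving out each library.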

Additional observations from a re-analysis of the deposited data

How the results depend on the processing

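Both members kept a negative difference short of the threshold under every scaling, filter and test tried (edgeR, DESeq2, limma-voom) and without any 1 library, with log2 fold changes from -0.14 to -0.02 for Cirbp and from -0.15 to -0.02 for Rbm3. Adding the counts of the Rbm3 pseudogenes, an alternative chosen after seeing the data, gave -0.10 for Rbm3. Over all genes, edgeR called 158 without a filter on low counts (Ptgs2 the 1 list member among them), 5 with robust estimation and 1 with a replicate block, DESeq2 called 34, and leaving out single libraries gave 0 to 28, with 21 without 2'-FL replicate 1 and 28 without control replicate 2. Same-numbered libraries did not deviate together (r from -0.12 to -0.05, against -0.05 to 0.11 for differently numbered ones). With 3 libraries a group, such r cannot decide whether the numbers mark a shared culture or batch. The replicate block changed no call of a member (log2 fold change -0.08 for Cirbp and -0.10 for Rbm3). The log2 difference in Cirbp per Rbm3, 0.01 with all libraries, ranged from -0.07 to 0.11 when single libraries were left out, changing sign without 2'-FL replicate 2 (-0.066), 2'-FL replicate 3 (-0.011) or control replicate 2 (-0.042). Mean rank moved with the unit: Cirbp stood at 8040 by RPKM, 9222.5 by CPM and 7795 among protein-coding genes, and Rbm3 at 959 by RPKM and 825.5 by CPM. The low Cirbp count limits how small a change could be seen.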
